A study of Mus musculus with 28 samples.

Results

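The genes described here are 10 cathepsins and lysosomal hydrolases: Ctsb, Ctsc, Ctsd, Ctse, Ctsh, Ctsl, Ctss, Lgmn, Ppt1 and Naaa. They were taken by gene symbol from count tables of 55487 genes, and each symbol matched 1 gene ID in each table. All 10 passed the filter on low counts in both experiments. They were followed across every one of the 14 groups of sorted spleen dendritic cells in the series.

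The cells were sort-purified from C57BL/6 mouse spleen as type 1 conventional dendritic cells (cDC1), type 2 conventional dendritic cells (cDC2) or a population that the study calls hybrid DC. Experiment 1 holds wild-type (WT) cDC1 and cDC2, and cDC1, hybrid and cDC2 from Irf8 +32H/+ mice (written H/+ here, 1 altered allele) and from Irf8 +32H/H mice (written H/H, 2 altered alleles). The altered element is the +32 kb enhancer of Irf8, the gene of the transcription factor that cDC1 depend on. Experiment 2 holds WT cDC1, H/H cDC1 and H/H hybrid again, cDC1 and hybrid from Irf8 +32H/H Nfil3-/- mice, and hybrid from Irf8 +32H/H Zeb2 -165D123 mice, which carry an allele named for the -165 enhancer of Zeb2 whose zygosity is not given. Each group has 2 libraries, described as biological duplicates, so 28 libraries were read. Every group other than WT carries the Irf8 enhancer allele, and the Nfil3-/- and Zeb2 -165D123 groups have no counterpart with a WT Irf8 locus. No WT hybrid group and no cDC2 group of experiment 2 enter these comparisons. No Cre line is named in the labels, and the gates, the animals' age and sex and the number of animals per library are not given in the sources used here. In experiment 1 every replicate 2 held Xist RNA and no replicate 1 did. In experiment 2 only replicate 2 of Nfil3-/- cDC1, Nfil3-/- hybrid and Zeb2 -165D123 hybrid held it, so that Xist is partly tied to genotype there.

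Lysosomal proteases cut endocytosed proteins and the invariant chain of MHC class II, and so decide which peptides a dendritic cell can present on class II molecules and how much antigen survives for cross-presentation on class I. cDC1 are known for cross-presentation and for mildly proteolytic endosomes, and cDC2 for presentation on class II. Ctss, Ctsb and Ctsl are cysteine endopeptidases, and Ctss performs late steps of invariant chain cutting. Ctsh is an aminopeptidase, and Ctsc is a dipeptidyl peptidase that activates granule serine proteases. Ctsd and Ctse are aspartic proteases. Lgmn, legumain, cuts after asparagine and activates other cathepsins. Ppt1 removes palmitate from proteins, and Naaa hydrolyses N-acylethanolamines such as palmitoylethanolamide; both are lipid hydrolases of the lysosome rather than proteases.

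In the GENCODE M21 annotation of mouse build GRCm38 the genes lie on 9 chromosomes. The lipid hydrolase genes are Ppt1 (chr4:122836242-122859175, plus strand) and Naaa (chr5:92257659-92278170, minus strand). The aspartic protease genes are Ctsd (chr7:142375911-142388038, minus strand) and Ctse (chr1:131638306-131675505, plus strand). The cysteine endopeptidase genes are Ctsb (chr14:63122462-63145923, plus strand), Ctsl (chr13:64359337-64370890, minus strand) and Ctss (chr3:95526786-95556403, plus strand). The exopeptidase genes are Ctsc (chr7:88278085-88310888, plus strand) and Ctsh (chr9:90054152-90076089, plus strand), and legumain is Lgmn (chr12:102394084-102439813, minus strand). Only Ctsc and Ctsd share a chromosome, 7, and they lie far apart on it. Exons of Ppt1 share 129 bases with Cap1 on the opposite strand, exons of Ctsb share 774 bases with Fdft1, and exons of Ctsl share 1742 bases with the antisense gene Gm47123. The library kit does not mark strand, so reads from these stretches cannot be told apart between the partners. On the same strand, exons of Ctsd share 808 bases with Gm49369 and exons of Ctsl share 395 bases with the pseudogene Gm49230. The highest count of either partner in any library was 0. The deposited estimates of Ctsb and Ppt1 have decimals in every library and those of Ctsl in 12 of the 16 libraries of experiment 1 and 6 of the 12 of experiment 2, which leaves these 3 genes less certain than the other 7.

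RefSeq promoter sequences of build GRCm38.p6 were matched for 7 of the genes, with 8 start sites in all. Each was cut to the 250 bases upstream of the start site. Ctsb, Ctse and Ctsh had none in the table. Both strands were searched for CACGTG, the core of the E-box to which TFEB and its relatives bind in lysosomal gene promoters, and for 3 letter strings linked to the factors altered here: CAGGTG (ZEB2), TTANGTAA (NFIL3) and the composite element of PU.1 and IRF8, with N for any base. Ctsd holds CACGTG at 2 places, -245 and -98 counted from the start site, Ctsl holds it at -236, and the second start site of Lgmn holds it at -49. Among all 32851 windows of the same length, 6.02% hold CACGTG. None of the 8 windows held CAGGTG, TTANGTAA or the composite element, which 17.2%, 2.06% and 2.3% of all windows hold. The windows of Ctsd and Ctsl overlap annotated first exons and are not printed. The 3 windows printed here overlap no annotated exon and are shown because they belong to the 2 genes most biased to cDC1 and to the gene that was highest in hybrid DC. Capitals mark the CACGTG match, and the Ppt1 and Naaa windows hold no match. They lie at chr12:102439093-102439342 on the minus strand (Lgmn), chr4:122835977-122836226 on the plus strand (Ppt1) and chr5:92278182-92278431 on the minus strand (Naaa).
Lgmn second start site: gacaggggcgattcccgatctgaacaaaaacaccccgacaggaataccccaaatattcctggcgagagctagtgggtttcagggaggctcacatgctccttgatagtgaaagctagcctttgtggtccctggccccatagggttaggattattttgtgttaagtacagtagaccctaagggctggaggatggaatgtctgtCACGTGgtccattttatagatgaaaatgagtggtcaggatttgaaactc
Ppt1: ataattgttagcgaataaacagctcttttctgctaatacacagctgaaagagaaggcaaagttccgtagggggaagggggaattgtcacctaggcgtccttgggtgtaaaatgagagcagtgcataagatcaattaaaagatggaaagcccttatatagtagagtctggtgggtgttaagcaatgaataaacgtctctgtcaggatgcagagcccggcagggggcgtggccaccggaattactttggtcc
Naaa: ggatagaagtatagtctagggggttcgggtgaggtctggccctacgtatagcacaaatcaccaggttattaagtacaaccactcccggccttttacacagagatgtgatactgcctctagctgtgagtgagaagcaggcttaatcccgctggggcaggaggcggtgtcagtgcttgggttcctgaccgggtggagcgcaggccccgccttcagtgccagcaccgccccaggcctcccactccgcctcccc

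Levels are given as CPM, the counts of a gene relative to the library total scaled by the trimmed mean of M-values (TMM), and comparisons as edgeR's quasi-likelihood test with Benjamini-Hochberg adjustment over all genes of the experiment, called at an adjusted p below 0.05. A log2 difference is the fitted log2 ratio of the first group named to the second. Library totals ranged from 23393658 to 38174301 counts in experiment 1 and from 17540512 to 22708519 in experiment 2, and the lowest count of any of the 10 genes in a library was 31, for Ctse in cDC2. Irf8 stood at 2580 and 1960 CPM in WT cDC1 and 48.9 and 47.9 CPM in WT cDC2, and Zeb2 at 1.02 and 0.687 against 88.9 and 65.8 CPM, as the sort labels imply. The 8 cDC1 markers summed to 5150 and 4470 CPM in WT cDC1 and to 174 and 165 in WT cDC2, and the 8 cDC2 markers to 23.3 and 24.5 against 1540 and 1520. In hybrid DC both lists were present, the cDC1 markers at 1210 to 2110 CPM and the cDC2 markers at 829 to 2000 CPM over all hybrid libraries. T cell markers summed to at most 21.4 CPM in any library and neutrophil markers to at most 39.7 CPM, while pDC markers reached 88.4 and erythroid and platelet markers 132 CPM. NK cell markers were higher, at 108 to 252 CPM in the cDC1 libraries, 44.2 to 93.9 in the hybrid libraries and 56 to 99.9 in the cDC2 libraries. Not all 5 NK markers were detected in every group. Nfil3-/- cDC1 summed to 141 and 148 CPM with no counts of Eomes and Ncr1. Nfil3-/- hybrid summed to 90.5 and 77.6 CPM with no counts of Eomes, Klrb1c and Ncr1. The sums in these groups thus come from the other genes of the list. The part of NK cells in the comparisons between these cells was not tested. In bulk RNA, fewer cells of a type and less RNA per cell cannot be told apart.

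The question of the first comparison is how WT cDC1 and cDC2 differ in these enzymes. The 2 lipid hydrolases and Ctse were far higher in cDC1, 6 proteases were higher in cDC2, and Ctsb was not called. Of the 10 genes, 3 were called higher in cDC1 and 6 lower, where 20.5% and 23.4% of all 16036 genes tested were called, and the median log2 difference over the 10 was -1.04 beside -0.07 over all genes.

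Naaa, the N-acylethanolamine hydrolase, stood at 1876 and 1559 CPM in the cDC1 libraries and 37.9 and 36.1 CPM in the cDC2 libraries (log2 difference 5.54 ± 0.17 SE, 46.4-fold, adjusted p = 2.74e-12). Ppt1, the palmitoyl thioesterase, stood at 5547 and 5374 CPM in cDC1 and 169 and 152 CPM in cDC2 (log2 difference 5.09 ± 0.13 SE, 34-fold, adjusted p = 3.68e-13). The groups lie far apart for both genes, and Ppt1 ranked 17th by CPM among all genes in cDC1 and 826th in cDC2. Ctse, an aspartic protease, was scarce in both cells at 7.16 and 7.76 CPM in cDC1 and 1.45 and 0.97 CPM in cDC2, and was also higher in cDC1 (log2 difference 2.63 ± 0.32 SE, 6.21-fold, adjusted p = 7.37e-06).

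The other aspartic protease went the opposite way. Ctsd stood at 27.2 and 22 CPM in cDC1 and 121 and 128 CPM in cDC2 (log2 difference -2.34 ± 0.18 SE, 5.06-fold, adjusted p = 1.05e-07). Ctsc, the dipeptidyl peptidase, stood at 112 and 144 CPM in cDC1 and 457 and 499.7 CPM in cDC2 (log2 difference -1.90 ± 0.13 SE, 3.73-fold, adjusted p = 1.39e-08). No cDC1 library of either gene reached a cDC2 library. Ctsl, a cysteine endopeptidase, was scarce in both cells, at 5.54 and 3.96 CPM in cDC1 and 13.1 and 14.5 CPM in cDC2 (log2 difference -1.54 ± 0.22 SE, 2.91-fold, adjusted p = 4.56e-05). Lgmn, legumain, stood at 69.9 and 77.9 CPM in cDC1 and 156 and 168 CPM in cDC2 (log2 difference -1.13 ± 0.12 SE, 2.19-fold, adjusted p = 2.24e-06).

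The abundant proteases differed least. Ctss, the endopeptidase of invariant chain cutting, stood at 707 and 726 CPM in cDC1 and 1550 and 1427 CPM in cDC2 (log2 difference -1.06 ± 0.096 SE, 2.08-fold, adjusted p = 3.27e-07). Ctsh, the aminopeptidase, stood at 403 and 385 CPM in cDC1 and 815 and 779 CPM in cDC2 (log2 difference -1.02 ± 0.084 SE, 2.02-fold, adjusted p = 1.17e-07). Both were lower in each cDC1 library than in each cDC2 library. Ctsb was the exception, with overlapping libraries at 738 and 659.6 CPM in cDC1 and 701 and 743 CPM in cDC2 (log2 difference -0.05 ± 0.13 SE, 1.03-fold, adjusted p = 0.791).

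To compare genes with each other, levels were divided by the length of all annotated exons joined (1358 bases for Ctss and 3721 for Naaa). The lengths of the transcripts expressed were not measured, so the order and the shares depend on this choice. Ppt1 led in WT cDC1 at 1490 ± 33.4 CPM per kb (SD, n = 2), ahead of Ctss at 528 ± 9.92 and Naaa at 462 ± 60.1. Before division by length Naaa stood above Ctss there, at a mean of 1717 against 716.4 CPM. In WT cDC2 the order began with Ctss at 1100 ± 64.2 CPM per kb, followed by Ctsh at 177 ± 5.58 and Ctsb at 119 ± 4.93, and Ppt1 stood seventh at 43.7 ± 3.22. Of the summed per-length level of the 10 genes, Ppt1 made up 54.2% in WT cDC1 and 2.64% in WT cDC2, and Ctss 19.2% and 66.4%. Ctsl and Ctse were the lowest of the 10 in both cells. As a share of all counts, the 10 genes took 0.867% and 0.823% in the WT cDC1 libraries and 0.426% in each WT cDC2 library.

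**Figure D1:**
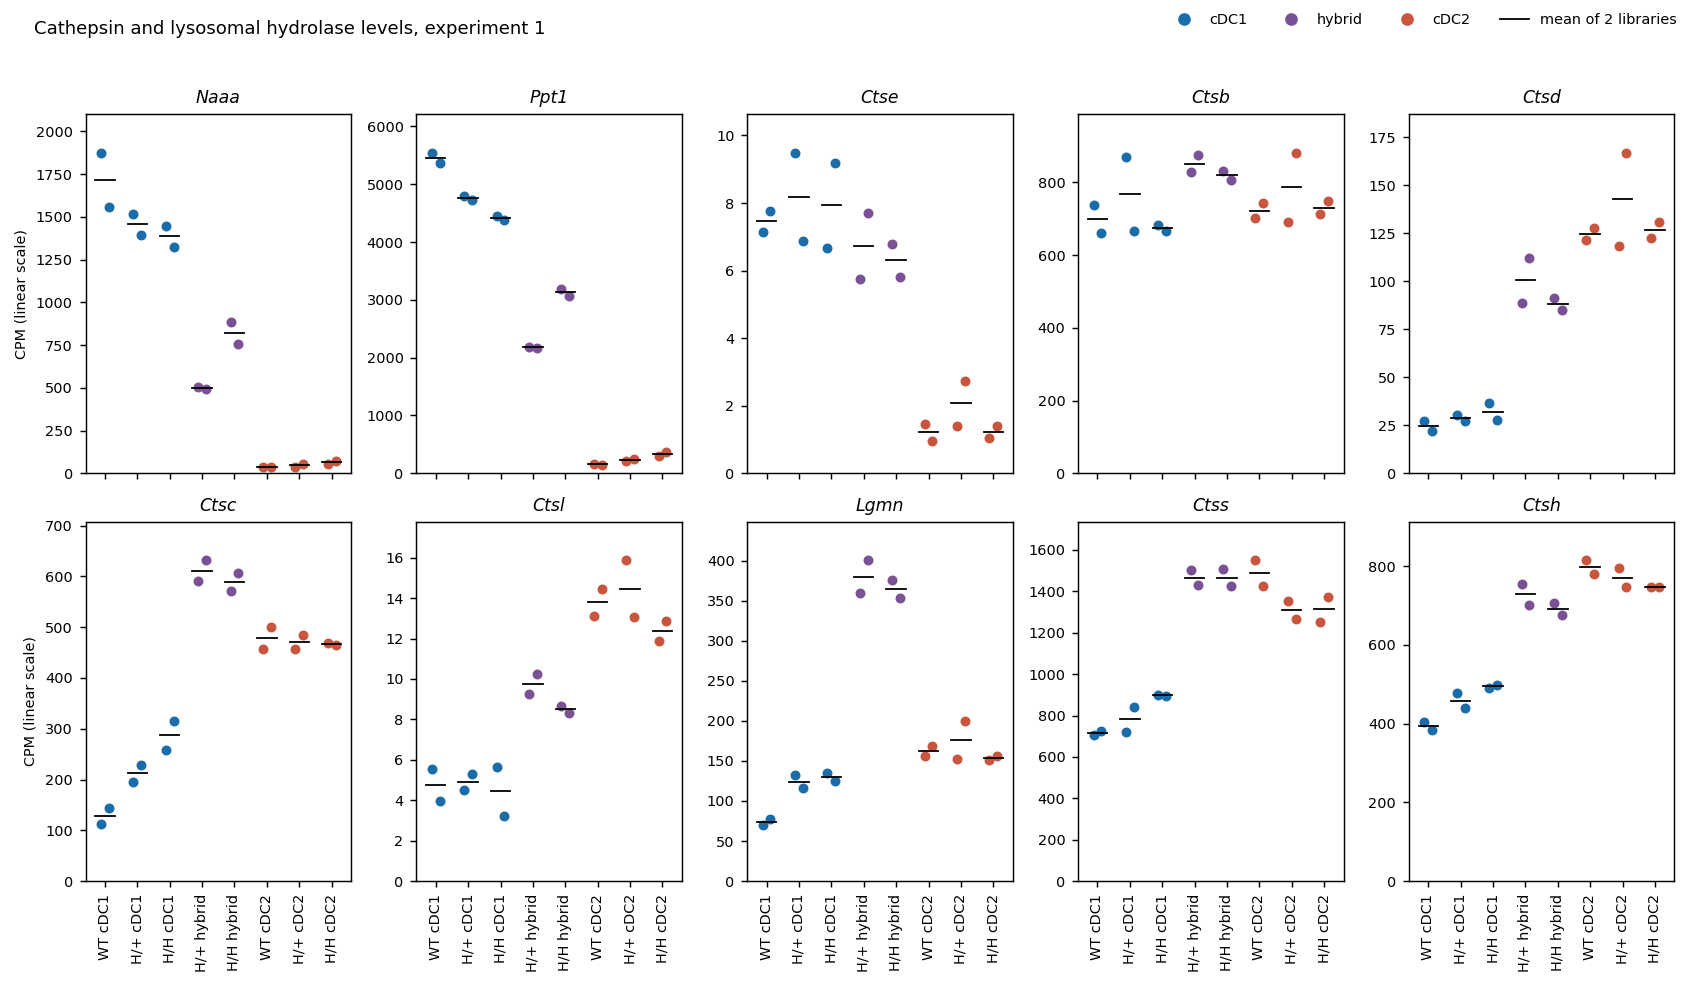
Level of each of the 10 genes in CPM on a linear axis from 0 in the 8 groups of experiment 1, with a point for each library and a line at the mean of 2. Naaa and Ppt1 fall from cDC1 through hybrid to cDC2, Ctsd, Ctsl and Ctsh run the other way, Lgmn is highest in both hybrid groups (353 to 400.2 CPM), and Ctsb overlaps between the WT subsets.

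Macrophages also express many of these enzymes at high level. The 12 macrophage and monocyte markers, all detected, summed to 276 and 178 CPM in WT cDC1 and to 772 and 806 in WT cDC2, and so moved with the 6 genes that were higher in cDC2. Their part in the differences was not tested.

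Other genes of the pathway differed in both directions between the WT subsets. Among 5 tested other cathepsins, 4 were lower in cDC1 and edgeR called 0 higher (0 also at an unadjusted p below 0.05): Ctsa, a carboxypeptidase, stood at 139 and 123.4 CPM against 715 and 705 (log2 difference -2.44 ± 0.099 SE, 5.42-fold, adjusted p = 3.85e-11), and Ctso was lower as well (log2 difference -0.89 ± 0.19 SE, 1.85-fold, adjusted p = 0.00138). Ctsf, at 0.197 and 0.131 CPM in cDC1 and 0.709 and 0.898 CPM in cDC2, was also lower in cDC1 (log2 difference -2.29 ± 0.85 SE, 4.88-fold, adjusted p = 0.0395). Among the cathepsin inhibitors, 2 of 3 were higher in cDC1 and 1 lower. Cst3, cystatin C, stood at 18960 and 19610 CPM in cDC1 and 988 and 1017 CPM in cDC2 (log2 difference 4.27 ± 0.12 SE, 19.2-fold, adjusted p = 1.37e-12), whereas Cst7, cystatin F, an inhibitor active within endolysosomes, stood at 0.511 and 0.458 against 11.2 and 10.3 CPM (log2 difference -4.46 ± 0.34 SE, 22-fold, adjusted p = 4.2e-08).

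Of 37 other lysosomal hydrolases, 12 were higher in cDC1 and 15 lower. Gusb, beta-glucuronidase, was higher (log2 difference 2.97 ± 0.099 SE, 7.85-fold, adjusted p = 5.84e-12), and Acp5, an acid phosphatase (log2 difference -3.19 ± 0.23 SE, 9.12-fold, adjusted p = 2.28e-07), and Pld3, a lysosomal exonuclease (log2 difference -3.09 ± 0.4 SE, 8.5-fold, adjusted p = 0.000107), were lower. Of 18 genes of the lysosomal membrane and proton pump, 5 were higher and 10 lower, with the cholesterol carriers Npc2 at a log2 difference of 1.56 ± 0.08 (adjusted p = 6.15e-10) and Npc1 at -1.85 ± 0.11 (adjusted p = 2.21e-09). Of 13 genes of delivery and regulation, 4 were higher and 4 lower. Igf2r, the large mannose 6-phosphate receptor, was higher, at a mean of 18.4 CPM in cDC1 and only 0.517 CPM in cDC2 (log2 difference 5.11 ± 0.36 SE, 34.5-fold, adjusted p = 1.85e-08). Tfeb, a transcription factor that drives lysosomal genes, was lower (log2 difference -2.31 ± 0.25 SE, 4.96-fold, adjusted p = 8.41e-06). Of 10 genes of class II loading, 3 were higher and 3 lower.

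The next comparison asks what the Irf8 +32H allele does to these genes within cDC1. Ctsc and Lgmn were higher in cDC1 with the allele in every comparison with WT, in both experiments, and Ctsh was higher in H/H cDC1 in both. The comparisons of H/+ and of H/H cDC1 in experiment 1 share the same 2 WT libraries. In H/+ cDC1, 2 of the 10 genes were called higher and edgeR called 0 lower (0 also at an unadjusted p below 0.05, and 2 called in all by DESeq2), beside 1.16% higher and 0.312% lower over all genes. In H/H cDC1 of experiment 1, 3 were called higher, beside 2.7%, and edgeR called 0 lower, beside 1.47% (2 lower at an unadjusted p below 0.05; 4 called in all by DESeq2). In H/H cDC1 of experiment 2, 4 were called higher, beside 4.37%, and edgeR called 0 lower, beside 1.94% (1 lower unadjusted; 5 called in all by DESeq2).

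Ctsc stood at 112 and 144 CPM in WT, 196 and 229 CPM in H/+ and 258 and 315 CPM in H/H cDC1 of experiment 1. In experiment 2 it stood at 93.3 and 131 CPM in WT and 310.4 and 319 CPM in H/H cDC1. The genotypes do not overlap in either experiment. The log2 difference from WT was 0.73 ± 0.13 (adjusted p = 0.0101) in H/+, 1.16 ± 0.13 (adjusted p = 5.52e-05) in H/H of experiment 1 and 1.49 ± 0.15 (adjusted p = 6e-06) in H/H of experiment 2, up to 2.81-fold.

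Lgmn stood at 69.9 and 77.9 CPM in WT, 132 and 116 CPM in H/+ and 134 and 125 CPM in H/H cDC1 of experiment 1, and the H/+ and H/H libraries overlap. In experiment 2 it stood at 54.7 and 53.4 CPM in WT and 144 and 163 CPM in H/H cDC1. The log2 difference from WT was 0.75 ± 0.12 (adjusted p = 0.0069) in H/+, 0.81 ± 0.12 (adjusted p = 9e-04) in H/H of experiment 1 and 1.5 ± 0.14 (adjusted p = 3.34e-06) in H/H of experiment 2. The H/+ calls of Lgmn and Ctsc both ended when the fit held only H/+ and WT cDC1 (adjusted p = 0.0547 and 0.111) or left out WT cDC1 replicate 1 (0.0891 and 0.124), and that of Lgmn also without H/+ cDC1 replicate 1 (0.0549).

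Ctsh stood at 403 and 385 CPM in WT and 492 and 499 CPM in H/H cDC1 of experiment 1 (log2 difference 0.33 ± 0.083 SE, 1.26-fold, adjusted p = 0.0344), a call that ended without any 1 of these 4 libraries (adjusted p between 0.118 and 0.254). In experiment 2 it stood at 338 and 346 against 511 and 542.5 CPM (log2 difference 0.62 ± 0.11 SE, 1.54-fold, adjusted p = 0.0015). Ctss stood at 707 and 726 CPM in WT and 900.2 and 895 CPM in H/H cDC1 of experiment 1 and did not pass the test (log2 difference 0.33 ± 0.095 SE, 1.25-fold, adjusted p = 0.0719). In experiment 2 it was called at 638 and 664 against 869 and 961 CPM (log2 difference 0.49 ± 0.11 SE, 1.41-fold, adjusted p = 0.013), and the call ended when the fit held only these groups (adjusted p = 0.122) or left out H/H cDC1 replicate 2 (0.0959), WT cDC1 replicate 1 (0.11) or replicate 2 (0.0716). The H/H libraries of both genes lie above the WT libraries in both experiments.

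Ppt1 and Naaa, which were higher in WT cDC1 than in WT cDC2, did not pass the test in cDC1 with the allele, although their libraries lie below those of WT. Ppt1 stood at 4790 and 4727 CPM in H/+ and 4450 and 4379 CPM in H/H cDC1 of experiment 1 (log2 difference of H/H from WT -0.31 ± 0.11, adjusted p = 0.141). In experiment 2 Ppt1 stood at 4207 and 4063 CPM in WT and 3434 and 4039 CPM in H/H (-0.15 ± 0.11, adjusted p = 0.613). Naaa stood at 1518 and 1396 CPM in H/+ and 1447 and 1323 CPM in H/H cDC1 of experiment 1 (-0.31 ± 0.14, adjusted p = 0.313). For Naaa in experiment 2, with 1465 and 1298 CPM in WT and 890.1 and 1107 CPM in H/H, the difference was -0.47 ± 0.14 (adjusted p = 0.0532), which lies just outside the threshold and was called with DESeq2's size factors in edgeR (0.0439), with DESeq2 (0.0126) and without H/H cDC1 replicate 2 (0.0162). Ctsd stood at 36.8 and 27.6 CPM in H/H cDC1 of experiment 1 (0.39 ± 0.18, adjusted p = 0.316) and at 25.9 and 29.6 against 21.2 and 18 CPM in WT in experiment 2 (0.50 ± 0.17, adjusted p = 0.108), in neither case called. Ctsb, Ctse and Ctsl were not called either, with differences of H/H from WT between -0.09 and 0.50 over both experiments. With both experiments in 1 fit, 7 of the 10 genes were called, namely Ctsc, Lgmn, Ctsh, Ctss and Ctsd (0.44) higher and Ppt1 (-0.23) and Naaa (-0.39) lower. That fit called more genes of every kind, 1822 in all, where the separate fits called 668 in experiment 1 and 916 in experiment 2.

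Marker lists moved with these differences. The cDC2 markers, all 8 detected, summed to 23.3 and 24.5 CPM in WT cDC1, 100 and 126 in H/+ cDC1 and 195 and 212 in H/H cDC1 of experiment 1, and to 16.7 and 20.9 in WT against 300 and 543 in H/H cDC1 of experiment 2. The 5 B cell markers summed to 30.1 and 27 CPM in WT cDC1 and 114 and 119 in H/H cDC1 of experiment 1, and to 32.7 and 43.4 against 186 and 173 in experiment 2. The macrophage markers summed to 276 and 178 in WT and 330 and 234 in H/H cDC1 of experiment 1, which overlap, and to 172 and 162 against 271 and 205 in experiment 2, which do not. NK cell markers summed to 156 and 168 in WT and 196 and 252 in H/H cDC1 of experiment 1, and to 108 and 109 against 132 and 122 in experiment 2. Irf8 itself stood at 837 and 831 CPM in H/H cDC1 of experiment 1, below WT (log2 difference -1.44 ± 0.13 SE, 2.72-fold, adjusted p = 9.2e-06). The part of these cells or states in the differences was not tested.

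H/H and H/+ cDC1, which differ by 1 copy of the allele, had no called difference in these genes. edgeR called 0 of the 10 (1 higher at an unadjusted p below 0.05, Ctsc; 0 by DESeq2), beside 0.218% higher and 0.0624% lower over all genes. The largest difference of the 10 was that of Ctsc (log2 difference 0.43 ± 0.13 SE, 1.35-fold, adjusted p = 0.284), whose 2 H/H libraries both lie above the 2 H/+ libraries. edgeR called Ctsc without a filter on low counts (adjusted p = 0.0115) and with a term for replicate number (0.0478), so its result depends on the fit. These fits called 251 and 136 genes in all, beside 45 in the fit given first.

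**Figure D2:**
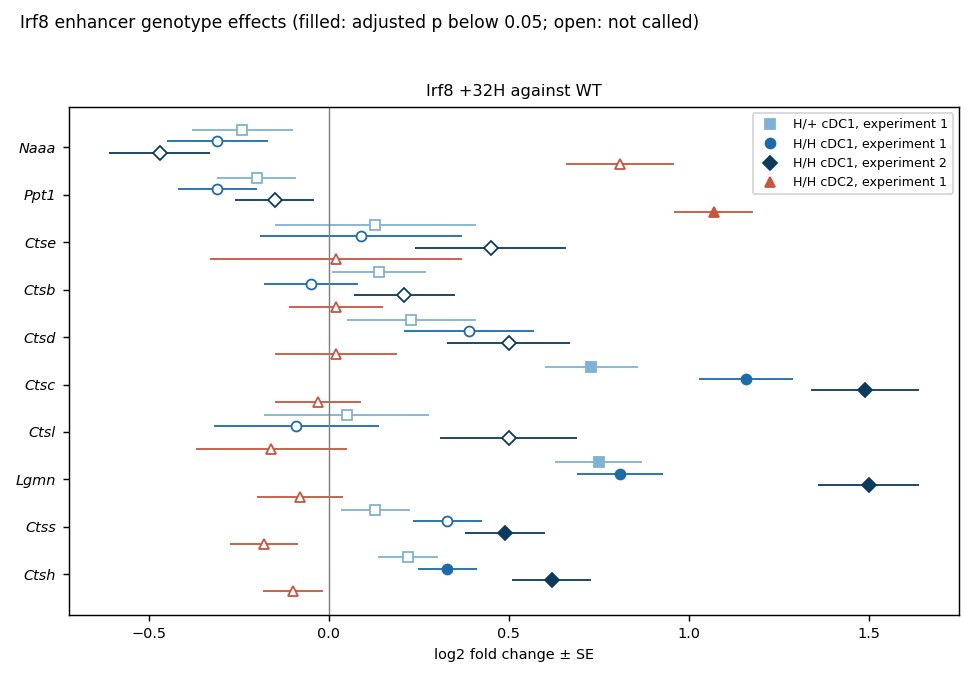
Log2 fold change of each gene against WT of the same subset, with its SE, for H/+ and H/H cDC1 and H/H cDC2 (filled: adjusted p below 0.05; open: not called). Ctsc and Lgmn lie to the right in all 3 cDC1 comparisons and at -0.03 and -0.08 in cDC2, while Ppt1 lies at 1.07 in cDC2 and at or below -0.15 in cDC1.

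Of the other pathway genes in H/H cDC1, Ctsa was higher than in WT in experiment 1 (log2 difference 0.80 ± 0.095 SE, 1.74-fold, adjusted p = 1e-04) and in experiment 2 (log2 difference 1.28 ± 0.12 SE, 2.42-fold, adjusted p = 3.7e-06). Igf2r was lower in experiment 1 (log2 difference -2.24 ± 0.3 SE, 4.73-fold, adjusted p = 0.000304) and in experiment 2 (log2 difference -2.23 ± 0.2 SE, 4.7-fold, adjusted p = 1.53e-06). Arsb, a sulfatase, was lower as well (log2 difference -0.71 ± 0.14, adjusted p = 0.00759 and -1.03 ± 0.15, adjusted p = 0.000211). Of 37 other hydrolases, 1 was higher and 5 lower in experiment 1, and 3 higher and 4 lower in experiment 2. Tpp1, a tripeptidyl peptidase, was called in experiment 2 (log2 difference 1.00 ± 0.16 SE, 2-fold, adjusted p = 6e-04).

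Within cDC2 the allele was accompanied by a rise of Ppt1. Ppt1 stood at 169 and 152 CPM in WT, 219 and 245.5 CPM in H/+ and 298 and 375 CPM in H/H cDC2, with no overlap between any of the 3 groups. H/H cDC2 was higher than WT (log2 difference 1.07 ± 0.11 SE, 2.1-fold, adjusted p = 0.000236). H/+ cDC2 did not pass the test (log2 difference 0.53 ± 0.11 SE, 1.45-fold, adjusted p = 0.232), though DESeq2 called it (adjusted p = 0.00217). Naaa stood at 37.9 and 36.1 CPM in WT, 39.2 and 52.6 CPM in H/+ and 57.3 and 72.4 CPM in H/H cDC2, again with no overlap. Its H/H difference lay just outside the threshold (log2 difference 0.81 ± 0.15 SE, 1.75-fold, adjusted p = 0.0577) and was called by DESeq2 (0.000217). The H/H level of Ppt1 in cDC2 remained far below the 4450 and 4379 CPM of H/H cDC1.

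Counted over the 10 genes, H/H cDC2 had 1 called higher, beside 0.0686% of all genes, and edgeR called 0 lower, beside 0.0125% (0 also at an unadjusted p below 0.05; 2 called in all by DESeq2). In H/+ cDC2 edgeR called 0 of 10, beside 0.0249% higher and 0% lower over all genes (2 higher at an unadjusted p below 0.05, as had 829 genes in all in either direction; 1 by DESeq2). These comparisons share the WT cDC2 libraries. Ctsc, Lgmn, Ctsb and Ctsd stayed within 0.19 of WT on the log2 scale in both genotypes, and none passed the test. The cDC1 markers summed to 174 and 165 CPM in WT cDC2, 181 and 182 in H/+ and 226 and 251 in H/H cDC2, and Irf8 was higher in H/H cDC2 at 86.2 and 109.5 CPM (log2 difference 1.02 ± 0.13 SE, 2.02-fold, adjusted p = 0.00345). Their part in the rise of Ppt1 was not tested.

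Whether the H/H effect differs between cDC1 and cDC2 was tested directly. It did for 4 of the 10 genes, 2 in each direction, beside 1.4% higher and 0.505% lower over all genes. The effect in cDC1 minus that in cDC2 was 1.19 ± 0.18 (adjusted p = 0.00154) for Ctsc, 0.89 ± 0.17 (adjusted p = 0.0108) for Lgmn, -1.37 ± 0.15 (adjusted p = 9.73e-05) for Ppt1 and -1.12 ± 0.2 (adjusted p = 0.00744) for Naaa on the log2 scale. That of Lgmn ended without H/H cDC1 replicate 1 (adjusted p = 0.0577), WT cDC1 replicate 1 (0.0615) or WT cDC2 replicate 2 (0.0501). Ctsa differed the same way as Ctsc (0.91 ± 0.13, adjusted p = 0.00137), and Igf2r the same way as Ppt1 (-3.19 ± 0.49, adjusted p = 0.00187). The value of Igf2r rests in part on a mean of only 0.517 CPM in WT cDC2.

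Hybrid DC were compared with the cDC1 and the cDC2 of the same genotype, which asks where the population lies between the subsets. On the log2 scale the hybrid means of Ctsd, Ctsl and Ctsh lay between the subsets and nearer to cDC2, those of Ppt1, Naaa and Ctse lay nearer to cDC1, and Lgmn was higher than in both. Against H/+ cDC1, 6 of the 10 genes were higher and 2 lower in H/+ hybrid, beside 9.77% and 6.68% of all genes. Against H/H cDC1 of experiment 1, 6 were higher and 2 lower in H/H hybrid, beside 5.24% and 2.61%. In experiment 2, 5 were higher and 2 lower, beside 7.24% and 5.25%. Each comparison uses other libraries.

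Lgmn stood at 359 and 400.2 CPM in H/+ hybrid, against 132 and 116 CPM in H/+ cDC1 and 153 and 200.1 CPM in H/+ cDC2. H/H hybrid stood at 375.5 and 353 CPM, against 134 and 125 CPM in H/H cDC1 and 150.5 and 156 CPM in H/H cDC2. Each hybrid library lies above every cDC1 and cDC2 library of experiment 1. The H/+ hybrid differed from cDC1 (log2 difference 1.61 ± 0.12 SE, 3.06-fold, adjusted p = 2.29e-07) and from cDC2 (log2 difference 1.11 ± 0.12 SE, 2.15-fold, adjusted p = 1.14e-05), and so did the H/H hybrid (log2 difference 1.49 ± 0.12 SE, 2.81-fold, adjusted p = 1.45e-06, and log2 difference 1.25 ± 0.12 SE, 2.37-fold, adjusted p = 2.38e-06). In experiment 2, which has no cDC2, H/H hybrid stood at 312.5 and 302 CPM against 144 and 163 CPM in H/H cDC1 (log2 difference 1.00 ± 0.14 SE, 2.01-fold, adjusted p = 0.000173).

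Ctsc was also at its highest in hybrid DC, at 591.5 and 631.5 CPM in H/+ and 570.2 and 606 CPM in H/H of experiment 1. It was higher than in cDC1 in H/+ (log2 difference 1.52 ± 0.13 SE, 2.88-fold, adjusted p = 6.38e-07) and in H/H (log2 difference 1.04 ± 0.13 SE, 2.05-fold, adjusted p = 8.47e-05). Against cDC2, at 456 and 485 CPM in H/+ and 468.5 and 466 CPM in H/H, the excess was small, 0.38 ± 0.12 (adjusted p = 0.0469) in H/+ and 0.33 ± 0.12 (adjusted p = 0.0646) in H/H. The H/+ call against cDC2 ended with DESeq2's size factors and without any 1 of the 4 libraries (adjusted p between 0.0931 and 0.197). In experiment 2 Ctsc stood at 532 and 492 CPM in H/H hybrid, above cDC1 (log2 difference 0.70 ± 0.15 SE, 1.63-fold, adjusted p = 0.00477), and this call ended without H/H hybrid replicate 1 (0.0561).

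Ctsd lay between the subsets, at 88.8 and 112 CPM in H/+ hybrid against 30.4 and 27.3 in cDC1 and 118 and 167 in cDC2. It was higher than in cDC1 in H/+ (log2 difference 1.80 ± 0.18 SE, 3.48-fold, adjusted p = 6.39e-06), in H/H of experiment 1 (log2 difference 1.46 ± 0.18 SE, 2.74-fold, adjusted p = 0.000111) and in H/H of experiment 2 (log2 difference 1.51 ± 0.17 SE, 2.84-fold, adjusted p = 1.99e-05). Against cDC2 it was -0.50 ± 0.17 (adjusted p = 0.0543) in H/+, not called, and -0.52 ± 0.17 (adjusted p = 0.0381) in H/H, a call that ended without any 1 library (adjusted p between 0.0953 and 0.187). The scarce Ctsl stood at 9.27 and 10.3 CPM in H/+ and 8.66 and 8.34 CPM in H/H hybrid, above cDC1 in H/+ (log2 difference 0.99 ± 0.22 SE, 1.99-fold, adjusted p = 0.00595) and H/H (log2 difference 0.93 ± 0.23 SE, 1.9-fold, adjusted p = 0.0187). Both calls of Ctsl ended without single libraries (adjusted p up to 0.0566 in H/+ and 0.217 in H/H). In experiment 2 Ctsl stood at 10.5 and 10.9 CPM in H/H hybrid and 5.84 and 6.07 CPM in H/H cDC1 (log2 difference 0.85 ± 0.18 SE, 1.8-fold, adjusted p = 0.00643), with an adjusted p of 0.0581 without H/H hybrid replicate 2.

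Ctss and Ctsh lay closer to cDC2 than to cDC1 in hybrid DC. Ctss was at 1505 and 1429 CPM in H/+ and 1509 and 1425 CPM in H/H hybrid, higher than in cDC1 by a log2 difference of 0.91 ± 0.095 (adjusted p = 7.51e-06) in H/+, 0.71 ± 0.095 (adjusted p = 0.000187) in H/H and 0.56 ± 0.11 (adjusted p = 0.00364) in H/H of experiment 2, the last of which ended without H/H hybrid replicate 1 (adjusted p = 0.0563). Its difference from cDC2 was 0.16 ± 0.095 (adjusted p = 0.266) and 0.16 ± 0.095 (adjusted p = 0.243). Ctsh was at 755 and 702 CPM in H/+ and 707 and 675.5 CPM in H/H hybrid, higher than in cDC1 by 0.67 ± 0.084 (adjusted p = 4.24e-05) and 0.48 ± 0.083 (adjusted p = 0.00178), and 0.29 ± 0.11 (adjusted p = 0.0975) in experiment 2, where it was not called. Ctsb at 828 and 875 CPM in H/+ and 832 and 807 CPM in H/H hybrid was not called against either subset.

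Ppt1 stood at 2185 and 2173 CPM in H/+ hybrid and 3190 and 3064 CPM in H/H hybrid. It was below cDC1 in H/+ (log2 difference -1.13 ± 0.11 SE, 2.18-fold, adjusted p = 2.46e-06), in H/H (log2 difference -0.50 ± 0.11 SE, 1.41-fold, adjusted p = 0.00788) and in H/H of experiment 2 (log2 difference -0.61 ± 0.12 SE, 1.53-fold, adjusted p = 0.00229), and the H/H call of experiment 1 ended without any 1 library (adjusted p between 0.0513 and 0.0849). Against cDC2 it was higher in H/+ (log2 difference 3.23 ± 0.12 SE, 9.39-fold, adjusted p = 1.19e-10) and H/H (log2 difference 3.22 ± 0.12 SE, 9.29-fold, adjusted p = 6.24e-11).

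Naaa stood at 506 and 493 CPM in H/+ hybrid and 885 and 758 CPM in H/H hybrid. It was below cDC1 in H/+ (log2 difference -1.54 ± 0.15 SE, 2.92-fold, adjusted p = 2.25e-06), in H/H (log2 difference -0.75 ± 0.14 SE, 1.69-fold, adjusted p = 0.00352) and in H/H of experiment 2 (log2 difference -0.98 ± 0.14 SE, 1.97-fold, adjusted p = 0.000212), and above cDC2 in H/+ (log2 difference 3.44 ± 0.16 SE, 10.9-fold, adjusted p = 1.6e-09) and H/H (log2 difference 3.66 ± 0.16 SE, 12.7-fold, adjusted p = 5.26e-10). Without H/H hybrid replicate 2 the H/H difference from cDC1 in experiment 1 had an adjusted p of 0.0634. Ctse at 5.75 and 7.7 CPM in H/+ and 6.8 and 5.83 CPM in H/H hybrid was not called against cDC1 and was above cDC2 (log2 difference 1.70 ± 0.31 SE, 3.26-fold, adjusted p = 0.00108, and log2 difference 2.38 ± 0.32 SE, 5.2-fold, adjusted p = 6.28e-05).

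In counts, H/+ hybrid against H/+ cDC2 had 5 of the 10 genes higher, beside 10.3% of all genes, and edgeR called 0 lower, beside 8.71% (2 lower at an unadjusted p below 0.05; 6 called in all by DESeq2). H/H hybrid against H/H cDC2 had 4 higher and 1 lower, beside 12.9% and 12.5%. The position of the hybrid between the subsets depends on the scale. On the log2 scale, with cDC2 at 0% and cDC1 at 100%, Ppt1 lay at 74.2% in H/+ and 86.6% in H/H hybrid, Naaa at 69.1% and 82.9%, and Ctse at 86.2% and 88.2%. Ctsl lay at 36.2% and 35.4% and Ctsd at 21.6% and 26.2% on that scale. On the linear CPM scale Ppt1 lay at 43% and 68.4% and Naaa at 32.1% and 57.3%. Ctsh, with a smaller log2 distance of cDC1 from cDC2 (-0.75 in H/+ and -0.59 in H/H), lay at 10.9% and 18.7%. The hybrid means of Lgmn, Ctsc and Ctss lay above both subsets in both genotypes, though Ctss was not called against cDC2. Ctsc lay near the threshold against cDC2 in both genotypes. It was called in H/+ hybrid in the fit of all groups. In H/H hybrid edgeR called it without a filter on low counts (adjusted p = 0.023), with a replicate block (0.016) and with only these groups in the fit (0.0141). Ctsb differed by at most -0.11 between the subsets and was given no position.

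**Figure D3:**
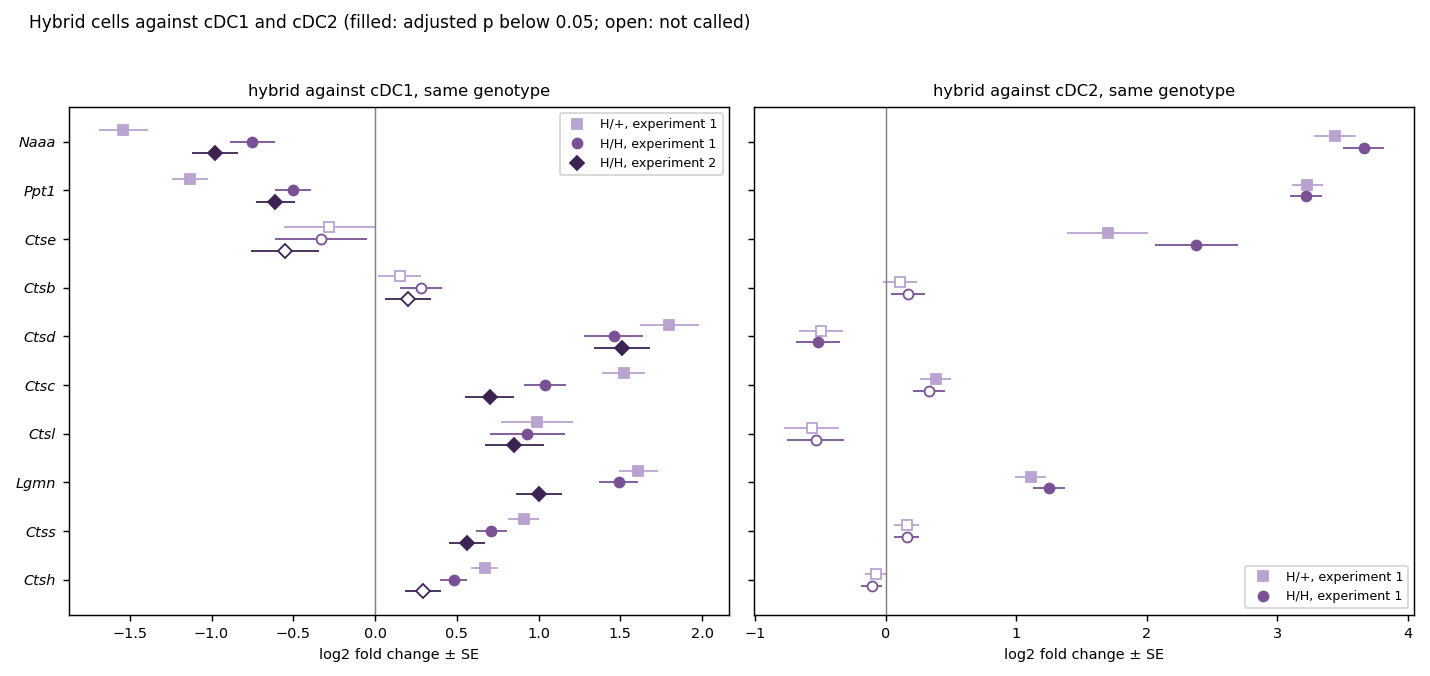
Log2 fold change of hybrid DC, with its SE, against cDC1 and against cDC2 of the same genotype (filled: adjusted p below 0.05; open: not called). Lgmn is filled to the right against both subsets (1.00 to 1.61), Ppt1 and Naaa are left of 0 against cDC1 and between 3.22 and 3.66 against cDC2, and Ctsb is open throughout.

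H/H hybrid and H/+ hybrid were compared to ask for an effect of allele number, and no difference in the 10 genes passed the threshold. edgeR called 0 of the 10 genes (2 higher at an unadjusted p below 0.05, as had 1079 genes in all in either direction; Naaa and Ppt1 by DESeq2), beside 0% higher and 0.131% lower over all genes. Naaa (log2 difference 0.72 ± 0.14 SE, 1.64-fold, adjusted p = 0.0831) and Ppt1 (log2 difference 0.52 ± 0.11 SE, 1.44-fold, adjusted p = 0.0909) were the 2, and for both, each H/H library lies above each H/+ library. In edgeR both were called without a filter on low counts and with a term for replicate number (adjusted p = 0.0493 each). They were also called with only these groups in the fit (0.00767 for Naaa and 0.00945 for Ppt1), so the result depends on the fit. The cDC1 markers summed to 1210 and 1290 CPM in H/+ and 1650 and 1670 in H/H hybrid, and the cDC2 markers to 1580 and 1970 and to 1330 and 1420. What part that has in the levels of Naaa and Ppt1 was not tested.

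Other genes of the pathway differed between hybrid DC and cDC1 in both directions. Ctsa was higher in hybrid than in cDC1 in H/+ (log2 difference 1.63 ± 0.096 SE, 3.09-fold, adjusted p = 1.46e-08), H/H of experiment 1 (log2 difference 1.11 ± 0.095 SE, 2.16-fold, adjusted p = 2.12e-06) and H/H of experiment 2 (log2 difference 1.14 ± 0.12 SE, 2.21-fold, adjusted p = 1.15e-05). Of 37 other hydrolases, 12 were higher and 6 lower in H/+, 11 and 4 in H/H of experiment 1, and 12 and 5 in H/H of experiment 2, with Pld3 at 23.9 and 38.8 CPM in H/+ hybrid against 3.1 and 4.17 in H/+ cDC1 (log2 difference 3.11 ± 0.4 SE, 8.63-fold, adjusted p = 0.00036). Atp6v0c, a proton pump subunit, was higher in all 3 (log2 difference 0.95 ± 0.1, adjusted p = 1.17e-05, 0.75 ± 0.1, adjusted p = 0.00026 and 0.78 ± 0.12, adjusted p = 0.000364). Tfeb was higher in all 3 as well (log2 difference 1.56 ± 0.25, adjusted p = 0.000673, 1.21 ± 0.24, adjusted p = 0.00772 and 0.67 ± 0.17, adjusted p = 0.0163). Igf2r was lower in hybrid than in cDC1 in H/+ (log2 difference -2.34 ± 0.31 SE, 5.06-fold, adjusted p = 7.41e-05) and in H/H of experiment 2 (log2 difference -1.51 ± 0.23 SE, 2.86-fold, adjusted p = 0.000358). Cst3 was lower in the same 2 comparisons (log2 difference -0.78 ± 0.11, adjusted p = 0.000119 and -0.43 ± 0.13, adjusted p = 0.0345). Tfec, a relative of Tfeb, was higher in H/+ hybrid (log2 difference 3.83 ± 0.62 SE, 14.2-fold, adjusted p = 0.00043). Its means were only 1.31 CPM in H/+ hybrid and 0.088 CPM in H/+ cDC1, so the fold is a ratio to a level near the floor. The macrophage markers summed to 790 to 856 CPM in the hybrid libraries of experiment 1 and 178 to 330 in the cDC1 libraries. They moved with Ctsa, Pld3, Atp6v0c, Tfeb and Tfec and against Igf2r and Cst3, and their part was not tested.

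NFIL3 is a transcription factor known to repress Zeb2, and the next comparison asks what its loss does on the H/H background. Naaa was higher without Nfil3 in both cDC1 and hybrid DC. Nfil3 itself stood at 30.9 to 55.3 CPM in the Nfil3-intact groups of experiment 2, at 3.68 and 2.76 CPM in Nfil3-/- cDC1 (log2 difference -3.50 ± 0.19 SE, 11.3-fold, adjusted p = 5.54e-08) and at 5.62 and 5.7 CPM in Nfil3-/- hybrid (log2 difference -3.10 ± 0.18 SE, 8.55-fold, adjusted p = 1.35e-07), which goes with the labels. In experiment 1, where no group is labelled Nfil3-/-, Nfil3 stood at only 6.03 to 11.7 CPM, nearer to the Nfil3-/- than to the Nfil3-intact groups of experiment 2, and the reason was not tested. Zeb2 was not called in either cell, although its libraries without Nfil3 lie below those with Nfil3. In cDC1 it stood at 7.22 and 6.565 CPM with Nfil3 and 4.76 and 5.05 without (-0.49 ± 0.3, adjusted p = 0.469). In hybrid it stood at 38.6 and 46.9 CPM with Nfil3 and 19.5 and 27.8 without (-0.85 ± 0.25, adjusted p = 0.0805). In cDC1, 2 of the 10 genes were higher, beside 1.34% of all genes, and edgeR called 0 lower, beside 1.69% (3 higher and 0 lower at an unadjusted p below 0.05, and 3 called in all by DESeq2). In hybrid, 2 were higher, beside 1.93%, and edgeR called 0 lower, beside 1.8% (7 higher and 0 lower unadjusted, and 3 called in all by DESeq2).

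Naaa stood at 890.1 and 1107 CPM in H/H cDC1 and 2025 and 2086 CPM in Nfil3-/- cDC1 (log2 difference 1.04 ± 0.14 SE, 2.06-fold, adjusted p = 0.000435). In hybrid DC it stood at 502 and 509 CPM with Nfil3 and 1468 and 1630 CPM without (log2 difference 1.61 ± 0.14 SE, 3.06-fold, adjusted p = 6.3e-06). The genotypes do not overlap in either cell, and Nfil3-/- cDC1 lies above the 1465 and 1298 CPM of WT cDC1. Ppt1 stood at 2410 and 2470 CPM in H/H hybrid and 3694 and 3629 CPM in Nfil3-/- hybrid (log2 difference 0.59 ± 0.12 SE, 1.5-fold, adjusted p = 0.00823), a call that ended without any 1 of these libraries (adjusted p between 0.0586 and 0.103). In cDC1 Ppt1 stood at 3434 and 4039 CPM with Nfil3 and 4418 and 4144 CPM without, and was not called (log2 difference 0.20 ± 0.11 SE, 1.15-fold, adjusted p = 0.44).

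Ctsd was higher in Nfil3-/- cDC1, at 52.1 and 39.8 CPM against 25.9 and 29.6 CPM (log2 difference 0.73 ± 0.17 SE, 1.66-fold, adjusted p = 0.0247), and the call ended when the fit held only these groups (adjusted p = 0.0628), without H/H cDC1 replicate 1 (0.205) or without Nfil3-/- cDC1 replicate 1 (0.233). In hybrid, Ctsd at 88.9 and 68.9 CPM with Nfil3 and 81.5 and 101 CPM without overlapped between the genotypes (0.21 ± 0.16, adjusted p = 0.482). Ctsl stood at 10.5 and 10.9 CPM in H/H hybrid and 15.8 and 16.8 CPM in Nfil3-/- hybrid, apart but not called (log2 difference 0.60 ± 0.18 SE, 1.52-fold, adjusted p = 0.0665). Ctsb stood at 870.4 and 731 CPM and at 1023 and 1156 CPM in the same 2 groups (log2 difference 0.45 ± 0.14 SE, 1.36-fold, adjusted p = 0.0903). Ctss at 1401 and 1303 against 1612 and 1700 CPM, and Ctsh at 673 and 611 against 741 and 833.5 CPM, were apart but not called. With only these 2 hybrid groups in the edgeR fit, Ctsl, Ctsb, Ctss and Ctsh were called (adjusted p = 0.0148, 0.014, 0.0344 and 0.0485). That fit called 1953 genes in all, where the fit of all groups called 541, so the added calls are not particular to these proteases. In Nfil3-/- cDC1, Ctss was called higher by DESeq2 alone (0.37, adjusted p = 0.0261). Ctsc was not called in either cell, with log2 differences of -0.01 and 0.04 (SE 0.15 and 0.14).

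No difference between the Nfil3 effect in hybrid and that in cDC1 passed the test. edgeR called 0 of the 10 genes (3 higher and 1 lower at an unadjusted p below 0.05, of 510 genes in all; 0 by DESeq2), beside 0% higher and 0.00689% lower over all genes. The estimate for Naaa was 0.57 ± 0.19 and that for Ctsl 0.72 ± 0.26, both with an adjusted p of 1.

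Within Nfil3-/- mice, hybrid DC differed from cDC1 in 6 proteases, and the lipid hydrolases were not called. Of the 10 genes, 6 were higher in hybrid, beside 4.02% of all genes, and edgeR called 0 lower, beside 1.26% (1 lower at an unadjusted p below 0.05, Naaa; 7 called in all by DESeq2). Ctsl (log2 difference 1.57 ± 0.18 SE, 2.96-fold, adjusted p = 4.12e-05), Lgmn (log2 difference 1.31 ± 0.14 SE, 2.47-fold, adjusted p = 1.74e-05) and Ctsd (log2 difference 0.99 ± 0.16 SE, 1.98-fold, adjusted p = 0.00142) led. Ctsc, Ctss and Ctsh followed at 0.75, 0.50 and 0.50, and each of these 3 calls ended without 1 or more single libraries (adjusted p up to 0.0632, 0.142 and 0.191). Naaa at -0.41 ± 0.14 (adjusted p = 0.11) and Ppt1 at -0.23 ± 0.11 (adjusted p = 0.339) were not called.

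The cDC2 markers summed to 300 and 543 CPM in H/H cDC1 and 136 and 126 in Nfil3-/- cDC1, and to 1550 and 2000 in H/H hybrid and 829 and 964 in Nfil3-/- hybrid. The cDC1 markers summed to 1910 and 1900 against 2460 and 2360 in cDC1, and to 1310 and 1240 against 1960 and 2110 in hybrid. Neutrophil markers summed to 11.9 and 10.3 CPM in Nfil3-/- cDC1 and 24.6 and 39.7 in Nfil3-/- hybrid, against at most 3.53 in the matching H/H groups. Their part in the differences was not tested.

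Of other pathway genes, Ctsa was higher in Nfil3-/- cDC1 (log2 difference 0.70 ± 0.12 SE, 1.63-fold, adjusted p = 0.00353). Grn, progranulin, a cofactor of lysosomal enzymes, was higher in cDC1 (log2 difference 0.57 ± 0.14 SE, 1.49-fold, adjusted p = 0.036) and hybrid (log2 difference 0.56 ± 0.14 SE, 1.48-fold, adjusted p = 0.0358). Ppt2, a relative of Ppt1, was also higher in cDC1 (log2 difference 0.59 ± 0.14 SE, 1.5-fold, adjusted p = 0.0292) and hybrid (log2 difference 0.61 ± 0.14 SE, 1.53-fold, adjusted p = 0.0223). Galc, galactosylceramidase, was lower in cDC1 (log2 difference -1.09 ± 0.21 SE, 2.14-fold, adjusted p = 0.00889). Of 37 other hydrolases, 3 were higher and 1 lower in cDC1, and in hybrid 3 were higher and edgeR called 0 lower (2 lower at an unadjusted p below 0.05).

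**Figure D4:**
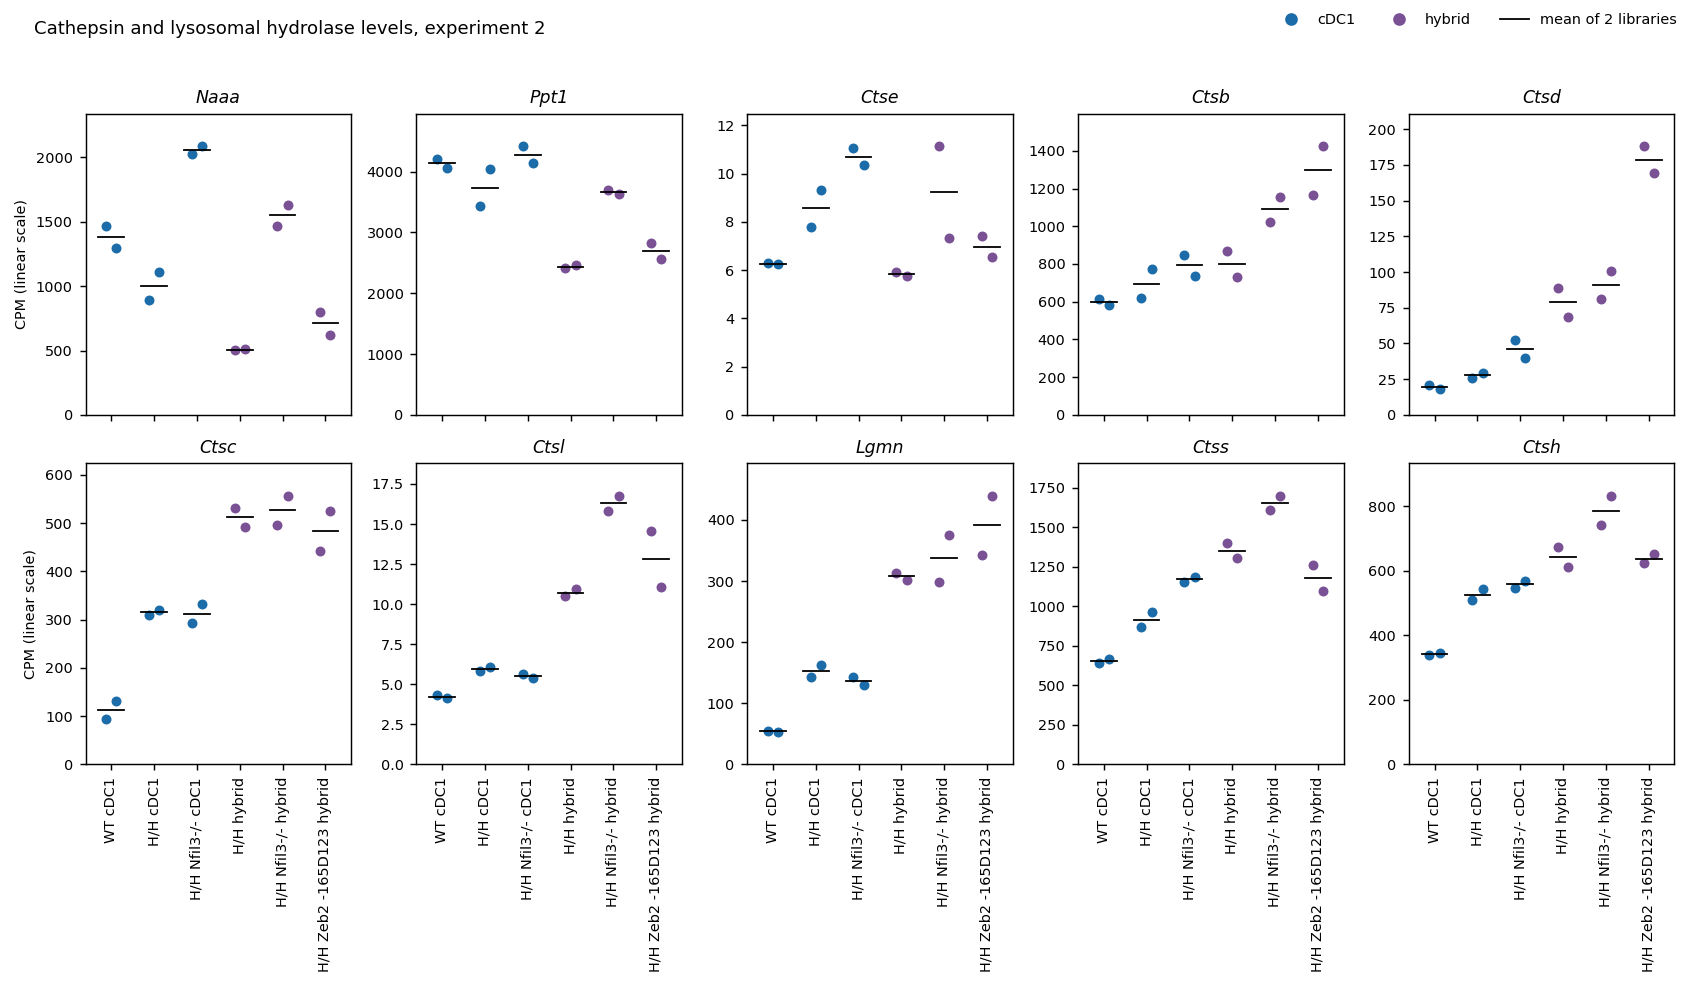
Level of each of the 10 genes in CPM on a linear axis from 0 in the 6 groups of experiment 2, with a point for each library and a line at the mean of 2. Naaa is highest in Nfil3-/- cDC1 (2025 and 2086 CPM), Ctsd is highest in Zeb2 -165D123 hybrid (188 and 169 CPM), and Ctsc and Lgmn step up from WT cDC1 to H/H cDC1 to the hybrid groups.

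The last comparison asks what the Zeb2 -165D123 allele does in H/H hybrid DC, where ZEB2 is known to oppose the cDC1 fate. Ctsd and Ctsb were higher with the allele. Zeb2 stood at 38.6 and 46.9 CPM in H/H hybrid and 10.3 and 19.6 CPM in Zeb2 -165D123 hybrid (log2 difference -1.51 ± 0.26 SE, 2.85-fold, adjusted p = 0.00555). Of the 10 genes, 2 were higher, beside 2.23% of all genes, and edgeR called 0 lower, beside 1.79% (0 also at an unadjusted p below 0.05; 3 called in all by DESeq2).

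Ctsd, the aspartic protease, stood at 88.9 and 68.9 CPM in H/H hybrid and 188 and 169 CPM in Zeb2 -165D123 hybrid (log2 difference 1.18 ± 0.16 SE, 2.27-fold, adjusted p = 0.000693). Both Zeb2 -165D123 libraries lie above every other library of experiment 2. Ctsb, the cysteine endopeptidase that was not called between the WT subsets, stood at 870.4 and 731 CPM in H/H hybrid and 1168 and 1424 CPM in Zeb2 -165D123 hybrid (log2 difference 0.69 ± 0.14 SE, 1.62-fold, adjusted p = 0.0107). That call ended without Zeb2 -165D123 replicate 2 (adjusted p = 0.156) and without either H/H hybrid library (0.0535 and 0.144). Naaa stood at 502 and 509 CPM in H/H hybrid and 799 and 622 CPM in Zeb2 -165D123 hybrid, apart and just outside the threshold (log2 difference 0.49 ± 0.14 SE, 1.4-fold, adjusted p = 0.058). Ppt1 (0.14 ± 0.11, adjusted p = 0.582), Lgmn (0.35 ± 0.14, adjusted p = 0.21), Ctsc (-0.08 ± 0.14, adjusted p = 0.83) and Ctss (-0.20 ± 0.11, adjusted p = 0.414) were not called.

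Against Nfil3-/- hybrid, 1 of the 10 genes was higher in Zeb2 -165D123 hybrid and 3 were lower, beside 5.7% and 5.22% of all genes. Ctsd was the higher one (log2 difference 0.97 ± 0.16 SE, 1.96-fold, adjusted p = 0.00125). Naaa, at 799 and 622 CPM against 1468 and 1630 CPM, was lower (log2 difference -1.12 ± 0.14 SE, 2.18-fold, adjusted p = 0.000106). Ctss (log2 difference -0.49 ± 0.11 SE, 1.4-fold, adjusted p = 0.0104) and Ppt1 (log2 difference -0.44 ± 0.12 SE, 1.36-fold, adjusted p = 0.021) were lower too, and both calls ended without Zeb2 -165D123 replicate 2 or either Nfil3-/- hybrid library (adjusted p up to 0.078 and 0.126). This comparison shares its Zeb2 -165D123 libraries with the preceding one.

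Macrophage markers moved with Ctsd and Ctsb. All 12 were detected, and they summed to 654 and 513 CPM in H/H hybrid, 565 and 678 in Nfil3-/- hybrid and 1270 and 1300 in Zeb2 -165D123 hybrid. Slc40a1, ferroportin, stood at 276 and 297 CPM in Zeb2 -165D123 hybrid against 58.9 and 28.4 in H/H hybrid, Vcam1 at 172 and 192 against 67.8 and 47.1, and C1qa at 39.7 and 42.5 against 10.4 and 8.52. Adgre1 (F4/80) stood at 169 and 216 against 177 and 179.8 CPM, and Ccr2 at 7.82 and 8.39 against 64.3 and 60.6. Among other pathway genes, Pld3 stood at 74.8 and 69.1 CPM against 20.1 and 13.1 CPM (log2 difference 2.11 ± 0.27 SE, 4.33-fold, adjusted p = 0.0012) and Igf2r was also higher (log2 difference 1.5 ± 0.23 SE, 2.82-fold, adjusted p = 0.0013), while Ctsa was lower (log2 difference -0.45 ± 0.12 SE, 1.36-fold, adjusted p = 0.0474). Of the 37 other hydrolases Pld3 was the 1 called higher, and edgeR called 0 lower (11 higher and 2 lower at an unadjusted p below 0.05). The part of macrophage RNA in the levels of Ctsd, Ctsb and Pld3 was not tested.

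**Figure D5:**
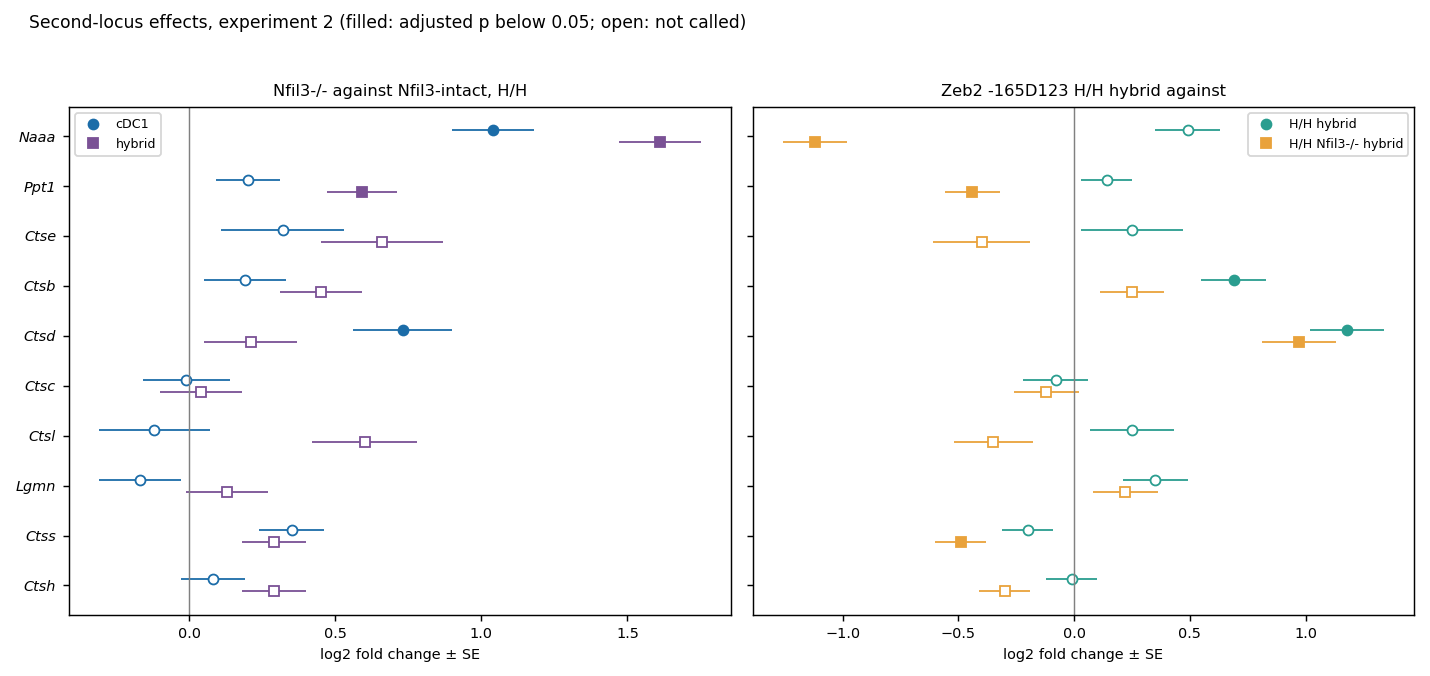
Log2 fold change of each gene with its SE for loss of Nfil3 in H/H cDC1 and H/H hybrid (left) and for Zeb2 -165D123 hybrid against H/H hybrid and against Nfil3-/- hybrid (right; filled: adjusted p below 0.05; open: not called). Naaa is filled at 1.04 and 1.61 on the left and at -1.12 against Nfil3-/- hybrid, and Ctsd is filled at 1.18 and 0.97 on the right.

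The genes also shared patterns with each other and with genes outside the family. Over the 8 group means of log2 CPM in experiment 1, Naaa and Ppt1 correlated at r = 0.998, and over the 6 group means of experiment 2 at 0.933. Ctsd and Ctsh correlated at 0.99 and 0.80. Among 7720 genes compared, the closest to Ppt1 were Gpr141b (r = 0.999, and 0.613 in experiment 2), Gatm (0.998 and 0.954) and Naaa. The closest to Naaa were Leprotl1 (0.999 and 0.919), Ncoa7 (0.998 and 0.506) and Ppt1. Ctsh was closest to Gngt2 (0.999 and 0.959), Zeb2 (0.998 and 0.917) and Ctsa (0.997 and 0.976). Ctsc was closest to Atf3 (0.995 and 0.962), Oasl2 (0.994 and 0.977) and Cd209a (0.993 and 0.854), Ctsd to Siglece (0.998 and 0.952), Ctss to Vopp1 (0.995 and 0.868), Lgmn to Sqor (0.982 and 0.883), Ctsl to Tgfbr1 (0.998 and 0.498) and Ctse to Coro7 (0.995 and 0.495). Ctsb had no gene above 0.934, that of the haemoglobin gene Hba-a1. These are descriptions: the group means share libraries between genes, and the closest genes were picked for their likeness in experiment 1.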

How the data were processed

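RNA sequencing of 28 libraries from 14 groups of sorted mouse spleen dendritic cells was read as 2 tables, one for each experiment. Per the labels' protocols, 10 ng of total RNA with a RIN above 9.0 was amplified with a SMARTer Ultra Low kit, which does not mark strand. The authors deposited expected counts per gene, of which 10.8% and 10.2% were not whole in experiments 1 and 2. Per the submitters' processing notes, the tools were DRAGEN, bcl2fastq and edgeR, whose versions are not given there. The build, the annotation and the use of strand in counting are not given in the sources used here, so coordinates and lengths are from GENCODE M21 (GRCm38), which held 99.5% of the gene IDs, and promoters are from RefSeq (GRCm38.p6). Of 55774 lines per table, 287 repeated a gene under another Entrez ID, and 55487 genes were kept. No column was left without a sample.

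The expected counts as deposited were rounded to whole numbers. Genes with low counts were removed with edgeR's filterByExpr, which left 16036 and 14504 genes. Libraries were scaled by TMM (factors 0.914 to 1.11 and 0.962 to 1.03), and each experiment was fitted separately with 1 coefficient per group, with 8 and 6 residual degrees of freedom. Differences were tested with edgeR 4.0.16 (glmQLFit with robust estimation, glmQLFTest; R 4.3.3, limma 3.58.1) and adjusted by Benjamini-Hochberg over all genes tested, with a threshold of 0.05. The SE is the size of the log2 difference over the square root of the F statistic. Libraries held 17540512 to 38174301 counts, and with 2 libraries per group the spread between libraries limits precision more than counting does. No library pair of a group agreed within counting noise. The code was tested on simulated data.

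The 10 genes, the pathway lists and the marker lists were chosen with earlier results of these data known. All 10 genes were tested and counted in each comparison, though the text does not name each of them for every comparison. Of each pathway list, up to 3 called genes with the largest absolute log2 difference were named, and for each of the 10 genes up to 3 with the highest Pearson correlation over the group means of log2 CPM (prior count 2) in experiment 1. Alternatives were DESeq2 1.42.0, DESeq2's size factors within edgeR, no filter on low counts, only the compared groups in the fit, a replicate block, a term for libraries that hold Xist, both experiments in 1 fit and leaving out each library. Protein sequences were not used here.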

Additional observations from a re-analysis of the deposited data

Results flagged for a closer look

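The H/H effect, H/H against WT, differed between cDC1 and cDC2 for 4 of the 10 genes by the interaction term of edgeR's quasi-likelihood fit, with Benjamini-Hochberg adjustment. The effect in cDC1 minus that in cDC2, on the log2 scale, was 1.19 for Ctsc (adjusted p = 0.00154), 0.89 for Lgmn (adjusted p = 0.0108), -1.37 for Ppt1 (adjusted p = 9.73e-05) and -1.12 for Naaa (adjusted p = 0.00744). Without H/H cDC1 replicate 1, WT cDC1 replicate 1 or WT cDC2 replicate 2 the value of Lgmn no longer passed the threshold (adjusted p = 0.0577, 0.0615 and 0.0501).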

How the results depend on the processing

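Over the alternatives run no direction of a called value of the 10 genes reversed, and DESeq2's size factors within edgeR moved no count of called genes by over 1.5 times. Counts of all genes called that moved by more are given here, each from its own comparison, and the cause was not tested.

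Without a filter on low counts, calls among all genes numbered 674 for H/+ against WT cDC1, 1051 for H/H against WT cDC1 in experiment 1, 251 for H/H against H/+ cDC1, 84 for H/+ and 79 for H/H against WT cDC2, 568 for the H/H interaction between cDC1 and cDC2, 153 for H/H against H/+ hybrid, 772 and 1052 for Nfil3-/- in cDC1 and hybrid, 23 for the Nfil3 interaction and 900 for Zeb2 -165D123 against H/H hybrid. Of the 10 genes, 5 were then called for H/H against WT cDC1 in experiment 1, 1 for H/H against H/+ cDC1, 1 and 2 for H/+ and H/H cDC2, and 2 for H/H against H/+ hybrid.

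DESeq2 called 534 genes for H/+ against WT cDC1, 134 for H/H against H/+ cDC1, 26 and 33 for H/+ and H/H cDC2 (1 and 2 of the 10 genes), 78 for H/H against H/+ hybrid (2 of the 10), 823 for Nfil3-/- in hybrid and 7 for the Nfil3 interaction. With only the compared groups in the fit, 40 genes were called for H/+ against WT cDC1 (0 of the 10), 10 for H/H against H/+ cDC1, 0 for H/+ cDC2, 1733 for H/+ hybrid against cDC1, 43 for H/H against H/+ hybrid (2 of the 10), 548 for H/H against WT cDC1 in experiment 2 and 1953 for Nfil3-/- in hybrid (6 of the 10), while of the 10 genes 5 were called for H/H against WT cDC1 in experiment 1 and 1 for Nfil3-/- in cDC1. With both experiments in 1 fit, 1822 genes (7 of the 10) were called for H/H against WT cDC1 and 3507 for H/H hybrid against cDC1.

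The replicate block used numbers that the labels do not tie to an animal. Deviations of same-numbered libraries correlated between 0.0398 and 0.342 over 28 group pairs in experiment 1 (24 of them above 0.1) and between -0.205 and 0.231 over 15 in experiment 2 (2 above 0.1). Since not every pair exceeded 0.1, the libraries were not treated as paired. In experiment 1 every replicate 1 lacks Xist and every replicate 2 holds it, so the block and the term for Xist are the same fit. With the replicate block, 599 genes were called for H/+ against WT cDC1, 136 for H/H against H/+ cDC1 (1 of the 10, Ctsc, adjusted p = 0.0478), 17 and 22 for H/+ and H/H cDC2, 479 for the H/H interaction, 59 for H/H against H/+ hybrid (2 of the 10, Naaa and Ppt1, adjusted p = 0.0493 each) and 0 for the Nfil3 interaction in experiment 2. The block also called Ctsc for H/H hybrid against cDC2 (adjusted p = 0.016) and changed no other call of the 10 genes.

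Leaving out 1 library at a time gave, among all genes, 5465 to 5636 calls for WT cDC1 against cDC2, 59 to 458 for H/+ and 336 to 437 for H/H against WT cDC1, 15 to 148 for H/H against H/+ cDC1, 0 to 5 and 7 to 18 for H/+ and H/H cDC2, and 189 to 234 for the H/H interaction. For hybrid the counts were 1683 to 2343 and 1797 to 2234 (H/+ against cDC1 and cDC2), 568 to 765 and 2520 to 3051 (H/H) and 3 to 17 (H/H against H/+). In experiment 2 they were 571 to 702 for H/H cDC1, 693 to 1158 for H/H hybrid, 167 to 522 and 128 to 223 for Nfil3-/- in cDC1 and hybrid, 0 to 2 for the Nfil3 interaction, 347 to 519 for Nfil3-/- hybrid against cDC1, and 128 to 261 and 596 to 963 for Zeb2 -165D123 against H/H and Nfil3-/- hybrid. Of the 10 genes, leave-one-out fits called 0 to 2 for H/+ and 2 for H/H against WT cDC1, 5 to 7 for H/H hybrid against cDC1, 1 for Nfil3-/- in hybrid, and 1 to 2 for Nfil3-/- in cDC1, for H/H cDC2 and for Zeb2 -165D123 against H/H hybrid, 3 to 5 for Nfil3-/- hybrid against cDC1, and 2 to 4 for Zeb2 -165D123 against Nfil3-/- hybrid. A library left alone in its group is assumed to vary like the other groups.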
